A study of Homo sapiens with 33 samples.

Results

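The AP-1 transcription factors were followed as 10 genes, FOS, FOSB, FOSL1, FOSL2, JUN, JUNB, JUND, ATF3, BATF3 and MAFF, taken by name from a table of read counts for 59428 gene symbols, and all 10 passed the filter on low counts in both experiments. The table held 33 libraries of poly(A) RNA from 2 breast cancer cell lines, MDA-MD-231 and MDA-MD-468 in the labels' spelling, made with a 3' tag kit that gives reads next to the 3' end of each transcript. In the inhibitor experiment, each wild-type line gave a pair of control libraries at 0 h, DMSO and Parental, the second with no agent named, and 1 library each at 3, 6 and 12 h of SY200, of V50 and of the combination SY200/V50. The knockout experiment used MDA-MD-231 only, with 1 Parental library at 0 h and 1 library each at 72 and 96 h of Empty vector and of cells with CDK1 KO, CDK7/9 KO, CDK7 KO or CDK9 KO. The series compares a CDK7 inhibitor, a CDK9 inhibitor and both together, but the sources used here do not assign SY200 or V50 to a kinase, or say what unit the numbers in their names have, or whether a knockout is a clone or a pool. Each combination of line, condition and time had 1 library, so p-values rest on how effects differ between lines or times, and no separate cultures are stated. The controls of the inhibitor experiment are at 0 h, so an agent and the time in culture cannot be told apart in any comparison with control or between times. All treatments share the same control libraries.

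AP-1 is not 1 protein but a family of dimers. JUN proteins pair with each other or with FOS proteins through leucine zippers and bind the sequence TGANTCA, while dimers with ATF proteins prefer TGACGTCA. FOS, FOSB, JUN, JUNB and ATF3 are immediate-early genes, switched on within minutes by growth factors or stress through MAP kinases, with short-lived mRNAs. FOSL1 and FOSL2 encode the FOS-related proteins FRA-1 and FRA-2, and FOSL1 is known for its high expression in mesenchymal-type breast cancer cells. JUND is the most constantly expressed of the JUN genes. BATF3 is a small partner of JUN proteins best known from dendritic cells, and MAFF is a small MAF protein that lacks a transactivation domain. CDK7 acts at the start of transcription by RNA polymerase II and CDK9 releases the paused polymerase into elongation.

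Several members share a sequence element in their promoters, and the short stretch around it is shown because these genes were measured together under agents that act on transcription. RefSeq promoters (GRCh38.p14) were matched for 8 of the 10 genes, all but FOSL1 and BATF3. The 250 bases before each start were searched on both strands for TGACG and for TGACNTCA, which overlap where N is G. Each line gives the 30 bases around the match nearest the start, 5′ to 3′ on the gene's strand, with the matched bases in capitals.
FOS, chr14:75278753-75278782, + strand: ggttgagcccgTGACGtttacactcattca
FOSB, chr19:45467925-45467954, + strand: caaggggcgggTGACGtaagcaggggggcg
FOSL2, chr2:28392781-28392810, + strand: gagtctggggtTGACGtgagtgaatccaca
JUN, chr1:58784096-58784125, - strand: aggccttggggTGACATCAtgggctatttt
JUNB, chr19:12791338-12791367, + strand: cttcctgacagTGACGcgagccgcctcctc
JUND, chr19:18281690-18281719, - strand: caaatgagcgaCGTCAcccgcacccaatgg
ATF3, chr1:212565273-212565302, + strand: cacctatgataTGACATCAtatggccactc
MAFF, chr22:38201929-38201958, + strand: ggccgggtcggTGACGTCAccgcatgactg

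The first base of the match lay 64 bases before the start in FOS, 60 in FOSB, 66 in FOSL2, 67 in JUN, 86 in JUND and 54 in MAFF, and farther out in ATF3 (123) and JUNB (137). All 8 promoters thus held TGACG or TGACNTCA within 250 bases, against 25.7% of the 35116 RefSeq promoters searched. By itself TGACG was in 7 of the 8, all but ATF3, against 21.2%. TGACNTCA by itself was in 4, JUN, JUND, ATF3 and MAFF, against 6.87%. Within 100 bases of the start, 6 of the 8 held one, against 14.7%. The full TGACGTCA was found in MAFF and in JUND, there 200 bases before the start and outside the stretch shown, against 1.65%. TATAAA was found in FOS, FOSB, JUNB and ATF3, against 10.7%. TGANTCA was found in none of the 8, against 6.57%, and neither was a CArG box (CC, 6 bases of A or T, GG), against 1.16%. These matches are letters in a window and describe the promoters, and no binding was measured. ATF3 and MAFF have 2 starts each in the table and were counted if either matched, while the percentages count each start by itself. The matches shown are at the first, and the TATAAA of ATF3 is at its second start, 230 bases before it.

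In GENCODE 29 (GRCh38), all 10 are protein-coding genes. FOS lies at chr14:75278774-75282230 on the + strand, FOSB at chr19:45467995-45475179 on the + strand, FOSL1 at chr11:65892049-65900573 on the - strand and FOSL2 at chr2:28392448-28417312 on the + strand. JUN lies at chr1:58780788-58784327 on the - strand, JUNB at chr19:12791496-12793315 on the + strand and JUND at chr19:18279760-18281622 on the - strand. ATF3 lies at chr1:212565334-212620777 on the + strand, BATF3 at chr1:212686418-212699985 on the - strand and MAFF at chr22:38200767-38216511 on the + strand. The promoter starts above are those of RefSeq and need not be the ends of these genes. The stretches printed for FOSL2, JUN and MAFF lie inside the GENCODE genes, and that of FOS overlaps the first bases of its gene. JUN and JUNB have a single exon. FOSB, FOSL2, JUNB and MAFF overlap a gene on the opposite strand (ERCC1, FLJ31356, HOOK2 and PLA2G6), and FOSL2 overlaps AC104695.3 on its own strand. Since the strand setting of the counting is not given, reads of the overlapping parts cannot be told apart.

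Library totals lay between 16985219 and 22859779 reads. In MDA-MD-231, the median level of 10 mesenchymal marker genes was 337 to 610 CPM (counts scaled to library size) and that of 10 epithelial and basal markers 0.195 to 1.94 CPM. In MDA-MD-468 these medians were 15.0 to 28.3 CPM and 108 to 235 CPM, so each library carried the markers of its labelled line. The 10 immune markers summed to 2.62 to 23.0 CPM. The 13 mitochondrially encoded mRNAs took 2.17% to 5.98% of the counts in MDA-MD-231 and 3.88% to 13.5% in MDA-MD-468, where the highest share was at 12 h of SY200/V50. All CPM values below are relative to the TMM-scaled library size, so they give a gene's share among the measured mRNAs and not an amount per cell, and in bulk RNA fewer cells and less RNA per cell cannot be told apart. Reads of a 3' tag kit do not scale with transcript length, and levels are compared between libraries, not between genes.

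Without inhibitor, the AP-1 make-up of the lines differed. FOSL1 stood at 357 CPM with DMSO and 288 CPM in the Parental library of MDA-MD-231, against 11.6 and 26.0 CPM in MDA-MD-468. BATF3 stood at 2.68 and 5.12 CPM in MDA-MD-231 and at 0.413 and 0.834 CPM in MDA-MD-468. In both genes each MDA-MD-231 control exceeded each MDA-MD-468 control. The log2 difference of MDA-MD-468 from MDA-MD-231 was -4.10 ± 0.44 (standard error) for FOSL1 (adjusted p = 1.87e-06, edgeR's quasi-likelihood F test with Benjamini-Hochberg adjustment over all 18911 genes tested, as for every adjusted p of the inhibitor experiment) and -2.63 ± 0.45 for BATF3 (adjusted p = 0.000178). MAFF was lower too, at 19.5 and 21.6 CPM against 46.5 and 44.5 CPM (-1.15 ± 0.40, adjusted p = 0.0253). ATF3 was higher in MDA-MD-468, at 37.1 and 22.6 CPM against 12.4 and 3.81 CPM (1.88 ± 0.43, adjusted p = 0.00179), and so was JUNB, at 158 and 124 CPM against 59.3 and 40.6 CPM (1.5 ± 0.54, adjusted p = 0.0296). Of the 10 genes 3 were thus lower in MDA-MD-468, against 25% of all genes tested, and 2 were higher, against 28.8%. The JUNB call was lost without either MDA-MD-231 control or without the MDA-MD-468 DMSO library (1.27 to 1.84 over the libraries left out), and the MAFF call was lost without any 1 of the 4 controls (-1.24 to -1.05). ATF3 was called without each, but its difference was 3.00 without the MDA-MD-231 DMSO library.

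The 2 control libraries of a line were far apart for some members, though none passed the test. FOS was 5.05 times as high with DMSO as in the Parental library in MDA-MD-231 (20.7 against 4.10 CPM) and 2.39 times as high in MDA-MD-468 (67.7 against 28.4 CPM). FOSB was 2.12 and 3.03 times as high, and ATF3 3.26 and 1.64 times. BATF3 was 0.522 and 0.496 times as high with DMSO, and JUN 0.730 and 1.53 times. None of the 10 passed the test of DMSO against Parental over both lines, where 0.037% of all genes passed. FOS had a log2 difference of 1.60 ± 0.70 (adjusted p = 0.565) and BATF3 of -0.98 ± 0.37 (adjusted p = 0.466). These 2 of the 10 members had an unadjusted p under 0.05 with edgeR, and none passed with DESeq2. This spread between controls is the base against which the changes of FOS, FOSB, ATF3 and BATF3 below are read.

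**Figure D1:**
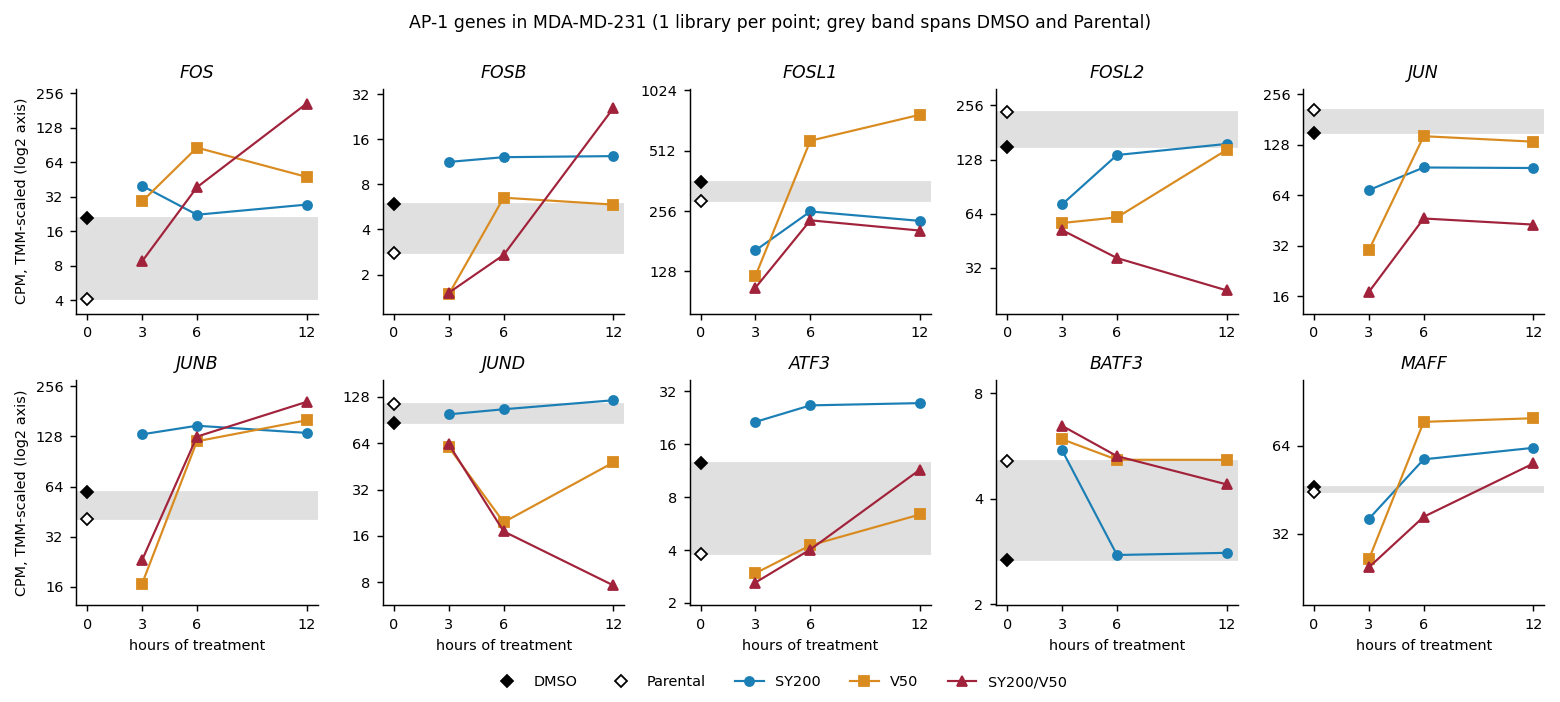
TMM-scaled CPM (log2 axis) of the 10 AP-1 genes in MDA-MD-231 against hours of treatment, 1 library per point, with the grey band spanning the DMSO and Parental libraries. FOSL2, JUN and FOSL1 lie below the band at each time of SY200/V50, while FOS reaches 208 CPM at 12 h.

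Among the FOS family, FOSL1 and FOSL2 lay below both controls of the line in each combination library. In MDA-MD-231, FOSL1 (controls 357 and 288 CPM) stood at 163, 255 and 229 CPM after 3, 6 and 12 h of SY200, at 122, 574 and 774 CPM after those times of V50, and at 106, 230.2 and 205 CPM after those of SY200/V50. In MDA-MD-468 (controls 11.6 and 26.0 CPM), it stood at 7.53, 7.53 and 16.8 CPM with SY200, at 8.80, 21.9 and 20.1 CPM with V50, and at 4.64, 4.35 and 3.87 CPM with SY200/V50. All 6 combination libraries lay below both controls of their line, whereas with V50 in MDA-MD-231 FOSL1 was below them at 3 h and above them at 6 and 12 h. The mean log2 change over the 3 times and both lines was -1.43 ± 0.28 with SY200/V50 (adjusted p = 0.000536), -0.01 ± 0.28 with V50 (adjusted p = 0.988) and -0.76 ± 0.28 with SY200 (adjusted p = 0.169). Within V50, FOSL1 was higher at 12 h than at 3 h by 1.96 ± 0.46 (adjusted p = 0.0109), a call lost without the MDA-MD-231 library at 3 h (1.5, adjusted p = 0.173) or at 12 h (1.56, adjusted p = 0.122).

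FOSL2, which encodes FRA-2, was lower with the combination and, on average, with V50. In MDA-MD-231 (controls 151 and 235 CPM), FOSL2 stood at 72.1, 136 and 156 CPM with SY200 at 3, 6 and 12 h, at 56.8, 61.0 and 145 CPM with V50, and at 51.8, 36.2 and 24.0 CPM with SY200/V50. In MDA-MD-468 (controls 141 and 147 CPM), it stood at 92.9, 115 and 122 CPM with SY200, at 61.7, 150.2 and 161 CPM with V50, and at 45.3, 65.0 and 74.5 CPM with SY200/V50. The combination libraries and the controls did not overlap in either line, and in MDA-MD-231 each later combination library was lower than the one before, while in MDA-MD-468 each was higher. The mean log2 change was -1.81 ± 0.27 with SY200/V50 (adjusted p = 3.87e-05), -0.81 ± 0.265 with V50 (adjusted p = 0.0365) and -0.59 ± 0.26 with SY200 (adjusted p = 0.264). At single times FOSL2 passed the test after 3 h of V50 (-1.53 ± 0.39, adjusted p = 0.0341) and after each time of the combination. The mean V50 call was lost without either MDA-MD-231 control or without any V50 library but the MDA-MD-468 one at 6 h, with values from -1.04 to -0.55 over the 22 libraries left out in turn, and was not made with DMSO alone (-0.61, adjusted p = 0.182) or Parental alone (-1.02, adjusted p = 0.0729) as control.

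FOS, the founding member of the family, was higher with V50 and with the combination. In MDA-MD-231 (DMSO 20.7, Parental 4.10 CPM), FOS stood at 39.8, 22.2 and 27.3 CPM with SY200 at 3, 6 and 12 h, at 29, 85.6 and 47.5 CPM with V50, and at 8.72, 38.6 and 208 CPM with SY200/V50. In MDA-MD-468 (67.7 and 28.4 CPM), it stood at 82.6, 72.9 and 63.5 CPM with SY200, at 109, 207 and 48.4 CPM with V50, and at 50.9, 83.2 and 60.02 CPM with SY200/V50. No treated library fell below both controls of its line, and 5 of 6 lay above both with SY200, 5 of 6 with V50 and 3 of 6 with SY200/V50. The highest values were at 12 h of the combination in MDA-MD-231 and at 6 h of V50 in MDA-MD-468. The mean log2 change was 1.54 ± 0.51 with V50 (adjusted p = 0.0393), 1.29 ± 0.51 with SY200/V50 (adjusted p = 0.0450) and 0.87 ± 0.50 with SY200 (adjusted p = 0.401). At single times FOS passed after 6 h of V50 (2.40 ± 0.62, adjusted p = 0.0119) and after 12 h of SY200/V50 (2.82 ± 0.65, adjusted p = 0.00183), and it was higher at 12 h than at 3 h of the combination by 2.92 ± 0.82 (adjusted p = 0.0213).

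These FOS calls rest on few libraries. With DMSO alone as control the log2 change of FOS was 0.94 with V50 (adjusted p = 0.253) and 0.68 with SY200/V50 (adjusted p = 0.337). The mean combination call was kept without the MDA-MD-231 library of V50 at 12 h or SY200/V50 at 3 h, or without the MDA-MD-468 library of DMSO, V50 at 12 h or SY200/V50 at 12 h, and was lost without any 1 of the other 17. Without the MDA-MD-231 library at 12 h of SY200/V50, FOS had a log2 change of 0.52 with the combination over the times (adjusted p = 0.332), of 0.53 at 12 h (adjusted p = 0.570) and of 0.63 for 12 h against 3 h (adjusted p = 0.634). The mean V50 call was lost without any of 9 libraries, namely both controls, SY200 at 3 h and V50 at 6 and 12 h of MDA-MD-231 and the Parental library, SY200 at 3 h and V50 at 3 and 6 h of MDA-MD-468, with values from 1.19 to 1.98.

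FOSB, the closest relative of FOS, was low in the controls and spread over a wide range. In MDA-MD-231 (5.91 and 2.79 CPM), FOSB stood at 11.3, 12.2 and 12.4 CPM with SY200, at 1.48, 6.52 and 5.87 CPM with V50, and at 1.51, 2.71 and 25.9 CPM with SY200/V50. In MDA-MD-468 (17.4 and 5.75 CPM), it stood at 39.8, 27.4 and 20.3 CPM with SY200, at 30.4, 94.2 and 12.4 CPM with V50, and at 9.73, 28.2 and 9.12 CPM with SY200/V50. All 6 SY200 libraries lay above both controls of their line, but the mean change of 1.40 ± 0.61 did not pass (adjusted p = 0.253), nor did those of V50 (0.97 ± 0.61, adjusted p = 0.267) and SY200/V50 (0.55 ± 0.60, adjusted p = 0.475). The 6 h change with V50 passed (2.15 ± 0.76, adjusted p = 0.0497) and rested on the MDA-MD-468 library, without which it was 0.66 (adjusted p = 0.706), and it was also lost without any of 15 other libraries.

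In the JUN family, JUN and JUND were lower than control with the combination, and JUNB did not pass. JUN encodes c-JUN, 1 of the JUN proteins that pair with FOS proteins. In MDA-MD-231 (controls 150.0 and 206 CPM), JUN stood at 68.7, 93.7 and 93.1 CPM with SY200, at 30.0, 144 and 134 CPM with V50, and at 16.9, 46.5 and 42.7 CPM with SY200/V50. In MDA-MD-468 (159 and 104 CPM), it stood at 87.9, 106 and 134 CPM with SY200, at 154, 389 and 308 CPM with V50, and at 32.5, 74.4 and 101 CPM with SY200/V50. All 6 combination libraries lay below both controls, lowest at 3 h in each line, whereas the V50 libraries lay below both controls in MDA-MD-231 at all 3 times and above both in MDA-MD-468 at 6 and 12 h. The mean log2 change was -1.87 ± 0.31 with SY200/V50 (adjusted p = 0.000108), -0.06 ± 0.31 with V50 (adjusted p = 0.911) and -0.78 ± 0.30 with SY200 (adjusted p = 0.188). With the combination it was -2.81 ± 0.48 at 3 h (adjusted p = 0.00230) and -1.30 ± 0.44 at 12 h (adjusted p = 0.0208), and the rise from 3 to 12 h passed at 1.51 ± 0.49 (adjusted p = 0.0417). That rise was lost without any of 10 libraries, among them each of the MDA-MD-231 and MDA-MD-468 combination libraries, with values from 1.03 to 1.76.

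JUND, the JUN gene that is usually present before a stimulus, reached the lowest share of its control level of any member. In MDA-MD-231 (86.4 and 116 CPM), JUND stood at 98.7, 106 and 122 CPM with SY200, at 60.4, 19.6 and 48.0 CPM with V50, and at 63.0, 17.1 and 7.62 CPM with SY200/V50. In MDA-MD-468 (95.9 and 72.3 CPM), it stood at 76.1, 99.8 and 117 CPM with SY200, at 85.5, 95.3 and 107 CPM with V50, and at 35.2, 28.6 and 45.1 CPM with SY200/V50. The combination libraries lay below both controls in both lines, and the V50 libraries did so only in MDA-MD-231. The mean log2 change was -1.65 ± 0.38 with SY200/V50 (adjusted p = 0.00202), -0.54 ± 0.39 with V50 (adjusted p = 0.333) and 0.14 ± 0.38 with SY200 (adjusted p = 0.899). At single times JUND passed after 6 h (-2.09 ± 0.58, adjusted p = 0.0102) and 12 h of the combination (-1.98 ± 0.58, adjusted p = 0.00954), the second of which was -1.19 without the MDA-MD-231 library at 12 h (adjusted p = 0.147) and -3.67 without the MDA-MD-468 one (adjusted p = 0.00104).

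JUNB, an early-response gene whose product often restrains c-JUN, passed in no mean comparison with control. In MDA-MD-231 (59.3 and 40.6 CPM), JUNB stood at 132, 149 and 135 CPM with SY200, at 16.7, 119.8 and 160.3 CPM with V50, and at 23.1, 128 and 207 CPM with SY200/V50. In MDA-MD-468 (158 and 124 CPM), it stood at 123, 241 and 232 CPM with SY200, at 95.3, 213 and 156 CPM with V50, and at 52.6, 96.3 and 65.9 CPM with SY200/V50. Both lines were thus below their controls after 3 h of V50 and of the combination, and by 12 h of the combination MDA-MD-231 was above its controls and MDA-MD-468 below. The mean log2 changes were 0.90 ± 0.41 with SY200 (adjusted p = 0.271), 0.30 ± 0.40 with V50 (adjusted p = 0.621) and -0.02 ± 0.40 with SY200/V50 (adjusted p = 0.970). From 3 to 12 h of the combination JUNB was higher by 2.12 ± 0.65 (adjusted p = 0.0311), which was 0.48 without the MDA-MD-231 library at 12 h (adjusted p = 0.673).

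**Figure D2:**
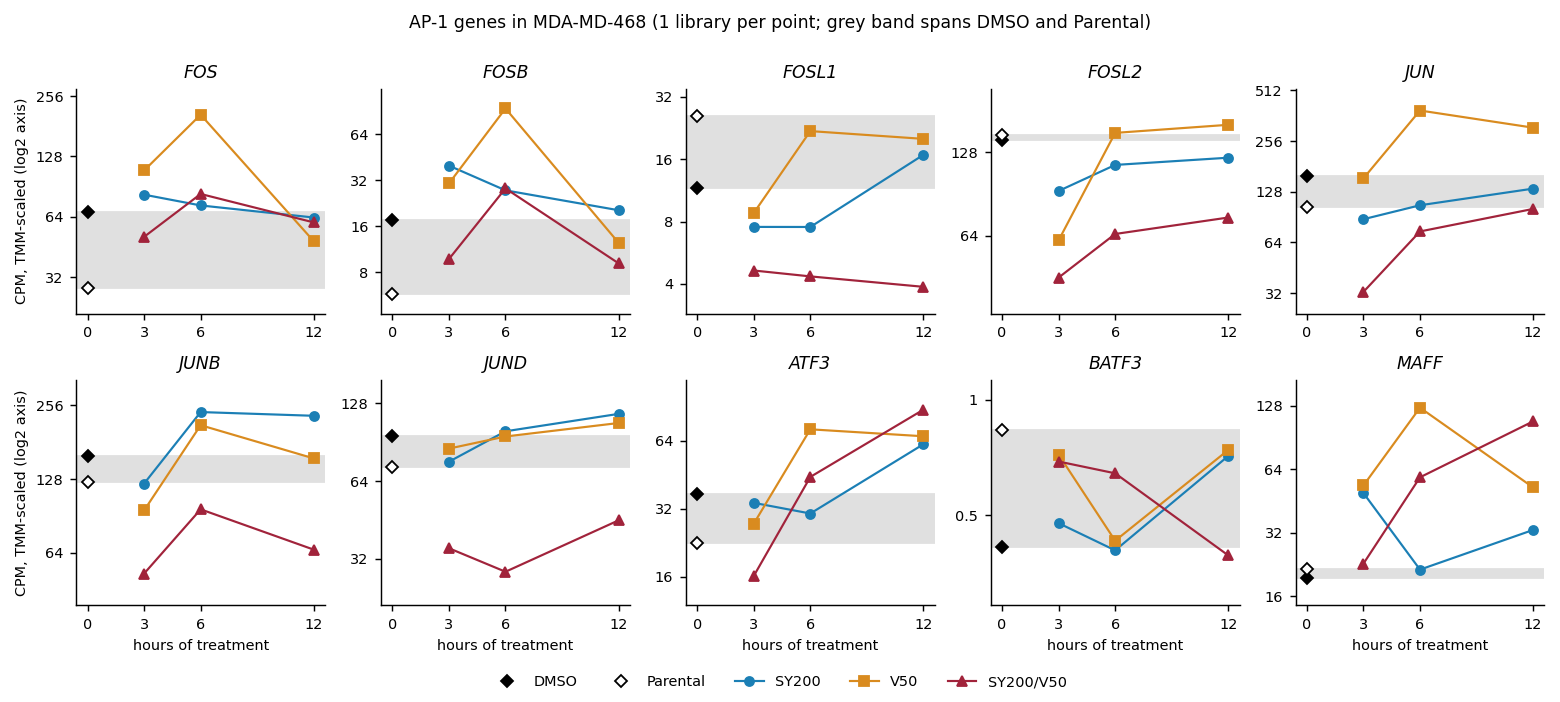
TMM-scaled CPM (log2 axis) of the 10 AP-1 genes in MDA-MD-468 against hours of treatment, 1 library per point, with the grey band spanning the DMSO and Parental libraries. FOSL1, FOSL2, JUN and JUND lie below the band at each time of SY200/V50, and JUN rises to 389 CPM at 6 h of V50.

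ATF3, BATF3 and MAFF are the members outside the FOS and JUN families. ATF3, a stress-induced factor that pairs with JUN proteins, stood in MDA-MD-231 (12.4 and 3.81 CPM) at 21.4, 26.6 and 27.4 CPM with SY200, at 2.95, 4.25 and 6.37 CPM with V50, and at 2.61, 4.03 and 11.5 CPM with SY200/V50. In MDA-MD-468 (37.1 and 22.6 CPM) it stood at 34.0, 30.5 and 61.7 CPM with SY200, at 27.5, 71.8 and 66.9 CPM with V50, and at 16.1, 44.2 and 87.6 CPM with SY200/V50. SY200 gave the highest ATF3 values in MDA-MD-231 and the combination at 12 h the highest in MDA-MD-468. No treatment passed against control (SY200 1.22 ± 0.50, adjusted p = 0.216; V50 0.10 ± 0.49, adjusted p = 0.911; SY200/V50 -0.08 ± 0.485, adjusted p = 0.905). The combination was lower than SY200 alone by -1.30 ± 0.45 on the log2 scale (adjusted p = 0.0257), a call lost without any 1 of the MDA-MD-231 libraries of SY200 or SY200/V50 (-1.65 to -0.87 over all libraries left out).

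MAFF, the small MAF protein, was higher with V50. In MDA-MD-231 (46.5 and 44.5 CPM), MAFF stood at 36.0, 57.6 and 63.1 CPM with SY200, at 26.2, 77.4 and 79.6 CPM with V50, and at 24.6, 36.6 and 55.8 CPM with SY200/V50. In MDA-MD-468 (19.5 and 21.6 CPM), it stood at 49.3, 21.4 and 33.0 CPM with SY200, at 53.6, 125 and 52.4 CPM with V50, and at 22.8, 58.5 and 108 CPM with SY200/V50. All 3 V50 libraries and all 3 combination libraries of MDA-MD-468 lay above both of its controls, while in MDA-MD-231 both treatments began below the controls at 3 h. The mean log2 change was 1.0 ± 0.35 with V50 (adjusted p = 0.04997), 0.49 ± 0.35 with SY200/V50 (adjusted p = 0.257) and 0.40 ± 0.34 with SY200 (adjusted p = 0.596). MAFF passed after 6 h of V50 (1.66 ± 0.44, adjusted p = 0.0128) and 12 h of SY200/V50 (1.36 ± 0.44, adjusted p = 0.0175), and these were 1.13 and 0.50 without the MDA-MD-468 library of that time (adjusted p = 0.174 and 0.558). With DMSO alone or Parental alone as control, MAFF with V50 was at 0.97 and did not pass (adjusted p = 0.160 and 0.204). The mean V50 call was kept without the MDA-MD-231 libraries of SY200 at 6 h, V50 at 3 h or V50 at 6 h or the MDA-MD-468 libraries of SY200 or SY200/V50 at 6 h, and was lost without any 1 of the other 17 (0.75 to 1.19). BATF3 ranged from 2.68 to 6.45 CPM in the inhibitor experiment in MDA-MD-231 and from 0.394 to 0.834 CPM in MDA-MD-468, and its log2 changes were -0.18 ± 0.28 with SY200, 0.29 ± 0.28 with V50 and 0.23 ± 0.28 with SY200/V50, none past the threshold (adjusted p from 0.471 to 0.807).

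**Figure D3:**
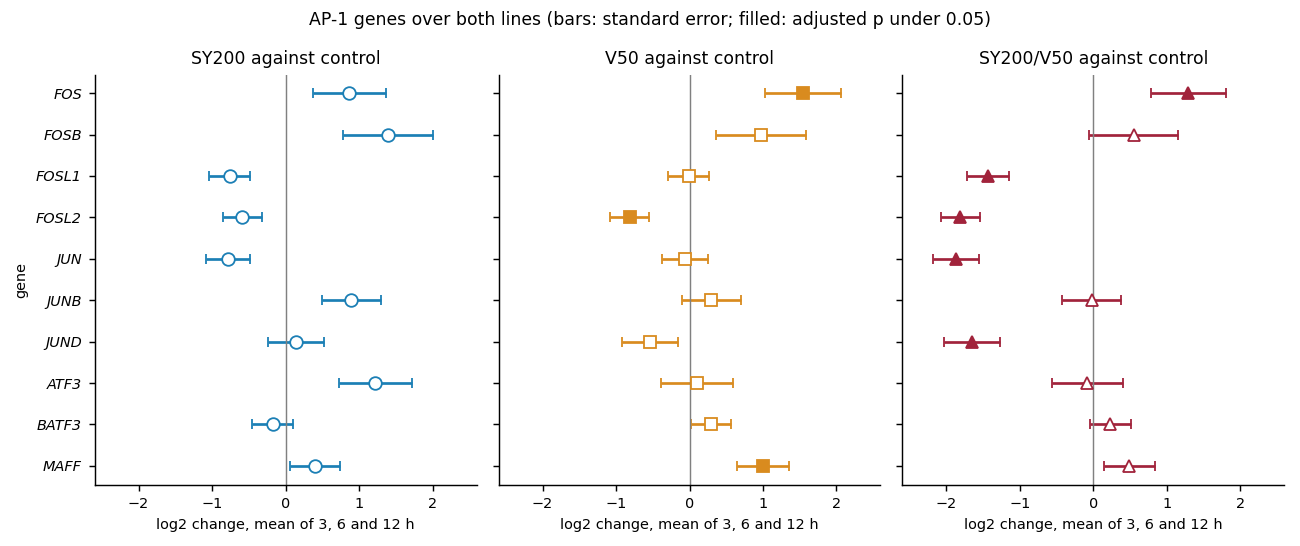
Log2 change of each AP-1 gene against control for SY200, V50 and SY200/V50, as the mean of 3, 6 and 12 h over both lines, with standard errors as bars and filled symbols for adjusted p under 0.05. FOSL1, FOSL2, JUN and JUND are lower with the combination (between -1.87 and -1.43), and FOS is higher with V50 and with the combination.

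The number of members called is given here beside the share of all genes called in the same comparison. Member counts at an unadjusted p under 0.05, here and in the other comparisons, have no such share beside them. They are not read as results about the members. With SY200, 0 of 10 passed, against 1.98% of genes called, and 6 of the 10 had an unadjusted p under 0.05 while DESeq2 called none. With V50, 2 were higher, against 10.4%, and 1 lower, against 11.9%. With SY200/V50, 1 was higher, against 24%, and 4 were lower, against 24.2%. The median log2 change of the 10 members was -0.05 with the combination beside 0.09 over all genes, 0.20 beside -0.00 with V50 and 0.27 beside -0.01 with SY200. At single times of SY200 no member passed, against 0.423% of genes called at 3 h, 0.264% at 6 h and 2.43% at 12 h, with 3, 1 and 1 of the 10 at an unadjusted p under 0.05 and none called by DESeq2.

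At single times, the members called lower appeared from 3 h and those called higher from 6 h. After 3 h of V50, 1 member was lower (FOSL2), against 3.26% of genes. After 6 h, 3 were higher (FOS, FOSB, MAFF), against 11.9%, and after 12 h none passed with edgeR or DESeq2, against 15.2% called, and 1 had an unadjusted p under 0.05. With the combination, FOSL1, FOSL2 and JUN were lower at 3 h, against 5.66% of genes lower. At 6 h JUND joined them, against 17.5%, and at 12 h the same 4 were lower, against 23.7%, while FOS and MAFF were higher, against 25.9%. All of the 17 calls at single times but FOSL2 at 12 h of the combination were lost without at least 1 library. Each such value rests on 1 library per line. Some, such as FOSB at 6 h of V50, were also lost without a control library or a library of another treatment. FOSL1 in the combination was at -0.72 at 6 h (adjusted p = 0.324) and at -1.05 at 12 h (adjusted p = 0.103) without the MDA-MD-468 library of that time, and at -1.91 and -2.08 without the MDA-MD-231 one. FOSL2 at 12 h was at -1.26 without the MDA-MD-231 library (adjusted p = 0.0445) and at -2.94 without the MDA-MD-468 one.

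In the inhibitor experiment, the comparison of 12 h with 3 h within a treatment does not use the 0 h controls. No control library stands at 3 or 12 h, so the agent and the time in culture cannot be told apart here either. With SY200 no member passed, against 1.95% of genes called, and none had an unadjusted p under 0.05 with edgeR and none passed with DESeq2. With V50, FOSL1 and FOSL2 (1.37 ± 0.42, adjusted p = 0.0416) were higher at 12 h, against 7.97% of genes higher. The FOSL2 call was lost without any 1 of 8 libraries, with values from 1.31 to 1.43. With SY200/V50, FOS, JUN, JUNB and MAFF (1.81 ± 0.54, adjusted p = 0.0277) were higher, against 9.57%. The MAFF call was lost without any 1 of 3 libraries, the MDA-MD-468 combination at 12 h (0.96, adjusted p = 0.363) and the combination at 3 h of either line (1.79 and 1.82, adjusted p = 0.155 and 0.144). ATF3 (2.30 ± 0.79, adjusted p = 0.0509) and FOSB (2.64 ± 0.997, adjusted p = 0.0750) had values of like size that did not pass. FOSL2 and JUND had -0.04 ± 0.42 and -1.10 ± 0.62 in the same comparison (adjusted p = 0.957 and 0.238).

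The combination was lower than each agent alone for the 4 falling members. Against V50 alone, FOSL1 (-1.43 ± 0.26, adjusted p = 0.00164), FOSL2 (-1.0 ± 0.24, adjusted p = 0.00879), JUN (-1.81 ± 0.28, adjusted p = 0.000577) and JUND (-1.11 ± 0.35, adjusted p = 0.0340) were lower, 4 of 10 against 12.4% of genes. Against SY200 alone, the same 4 were lower with FOSL1 at -0.67 ± 0.26 (adjusted p = 0.0423), FOSL2 at -1.22 ± 0.24 (adjusted p = 0.000685), JUN at -1.09 ± 0.28 (adjusted p = 0.00440) and JUND at -1.79 ± 0.36 (adjusted p = 0.000691), and JUNB (-0.92 ± 0.36, adjusted p = 0.0431) and ATF3 were lower as well, 6 of 10 against 22.2%. The difference of the combination from the sum of the single effects passed for none of the 10, against 5.04% of genes called. It was below 0 for 9 of the 10, beside 44.7% of all genes, 5 had an unadjusted p under 0.05 with edgeR and none passed with DESeq2. JUN, for example, was at -1.02 ± 0.42 (adjusted p = 0.149). JUND against V50 was lost without any of 8 libraries (-1.70 to -0.69), FOSL1 against SY200 without any of 8 (-0.95 to -0.52) and JUNB against SY200 without any of 11 (-1.50 to -0.72).

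**Figure D4:**
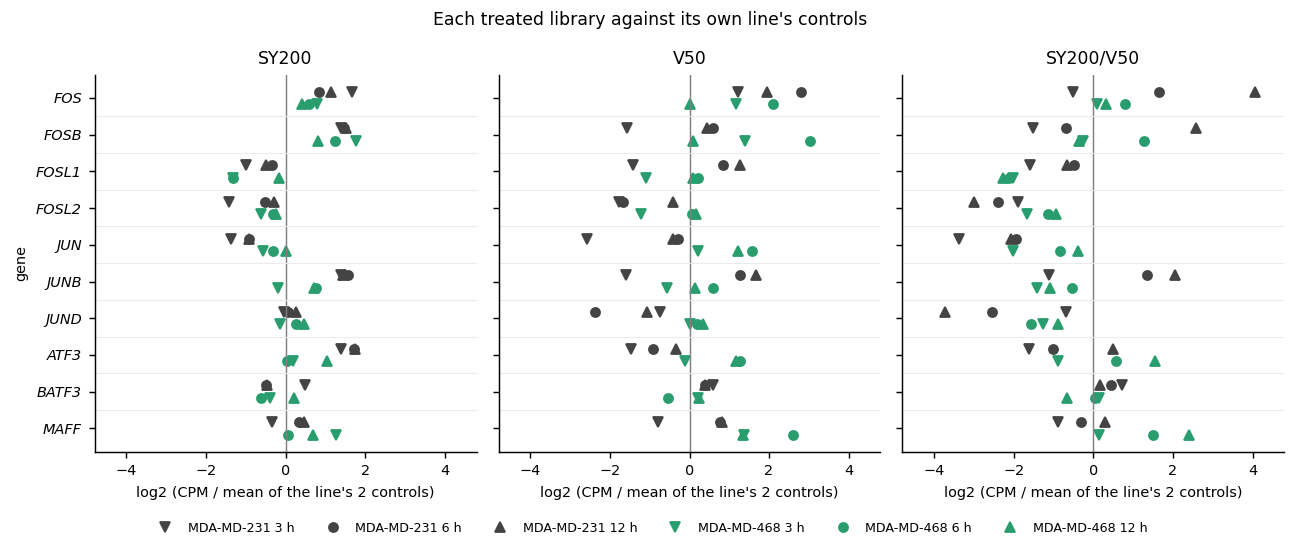
Log2 ratio of each treated library to the mean of the 2 controls of its line, by gene and treatment, with MDA-MD-231 in dark grey and MDA-MD-468 in green and the times as symbols. With V50 the JUN and MAFF points of MDA-MD-468 lie to the right of those of MDA-MD-231, and with SY200/V50 the points of FOSL1, FOSL2, JUN and JUND lie left of 0 in both lines.

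Whether the lines responded alike was tested with an interaction of treatment and line. No member passed, and neither did any gene, for SY200 (0% called), V50 (0%) or SY200/V50 (0%). With V50, JUN had a difference between the lines of 2.09 ± 0.34 (adjusted p = 0.185) and with the combination of 1.39 ± 0.34 (adjusted p = 0.105), and DESeq2 called both. Members with an unadjusted p under 0.05 numbered 2 of 10 with SY200, 4 with V50 and 5 with SY200/V50. No share of all genes at that p stands beside these counts. In fits of each line alone, chosen after the data were seen and with the 3 times as repeats, FOSL2 was lower with the combination than in the controls in MDA-MD-231 (-2.51 ± 0.51, adjusted p = 0.0497; 0.762% of genes lower), as were FOSL1 (-2.12 ± 0.47, adjusted p = 0.0204), FOSL2 (-1.22 ± 0.33, adjusted p = 0.0308) and JUND (-1.21 ± 0.24, adjusted p = 0.0154) in MDA-MD-468 (11.3% lower). JUN was at -2.49 ± 0.57 in MDA-MD-231 (adjusted p = 0.0515) and -0.92 ± 0.43 in MDA-MD-468 (adjusted p = 0.134). FOS was at 2.6 ± 1.10 (adjusted p = 0.113) and 0.44 ± 0.50 (adjusted p = 0.524).

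The direction of the rising members depends on what the libraries are scaled to. Scaled to their 13 mitochondrially encoded mRNAs, which are made by a different polymerase, the median of all genes with SY200/V50 was -1.33, and 171 genes were higher and 15661 lower, against 4532 and 4582 with TMM scaling. FOS was then at -0.13 (adjusted p = 0.802), MAFF at -0.90 (adjusted p = 0.00965) and BATF3 at -1.17 (adjusted p = 0.00134), so 8 of the 10 members were lower and none higher. Relative to that median, FOS was at 1.2, MAFF at 0.44, FOSL1 at -1.55, FOSL2 at -1.89, JUN at -1.93 and JUND at -1.74. The falls of FOSL1, FOSL2, JUN and JUND were past the threshold with both scalings. With the mitochondrial one 15661 of the 18911 genes tested were lower, so passing there does not set these 4 apart. With V50 the median was -0.92 (309 genes higher and 13964 lower, against 1972 and 2253), FOS was at 0.60 (adjusted p = 0.258), MAFF at 0.11 (adjusted p = 0.748), and FOSL1, FOSL2, JUN and JUND were lower. With SY200 the median was -0.44 (202 genes higher and 5097 lower of 18911, against 183 and 192), and FOSL1, FOSL2 and JUN were lower. The mitochondrial share of counts was 2.17% and 2.51% in the MDA-MD-231 controls and 3.21%, 4.66% and 5.05% at 3, 6 and 12 h of the combination. In MDA-MD-468 it was 3.88% and 3.93% in the controls and 7.06%, 9.24% and 13.5% at those times, and its part in the changes was not tested.

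In the knockout experiment the targeted genes were checked first. CDK1 stood at 81.7 and 84.3 CPM in the CDK1 KO libraries against 178 and 283 CPM with Empty vector, CDK7 at 15.3 and 13.7 CPM in the CDK7 KO libraries against 49.0 and 66.5 CPM, and CDK9 at 33.2 and 36.4 CPM in the CDK9 KO libraries against 70.4 and 62.1 CPM. In the CDK7/9 KO libraries CDK7 stood at 15.6 and 17.1 CPM and CDK9 at 34.3 and 36.6 CPM. Each targeted gene was thus lower in both libraries that its label names than in both Empty vector libraries, although a 3' tag need not report on an edit elsewhere in the gene. This was not particular to the named libraries for CDK1 and CDK7. CDK1 was also below both Empty vector libraries in CDK7 KO (153 and 140.5 CPM) and CDK7/9 KO (154 and 149.8 CPM). So was CDK7 in CDK1 KO (45.1 and 47.3 CPM) and CDK9 KO (48.9 and 47.4 CPM). Both genes were lowest in the libraries named for them.

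**Figure D5:**
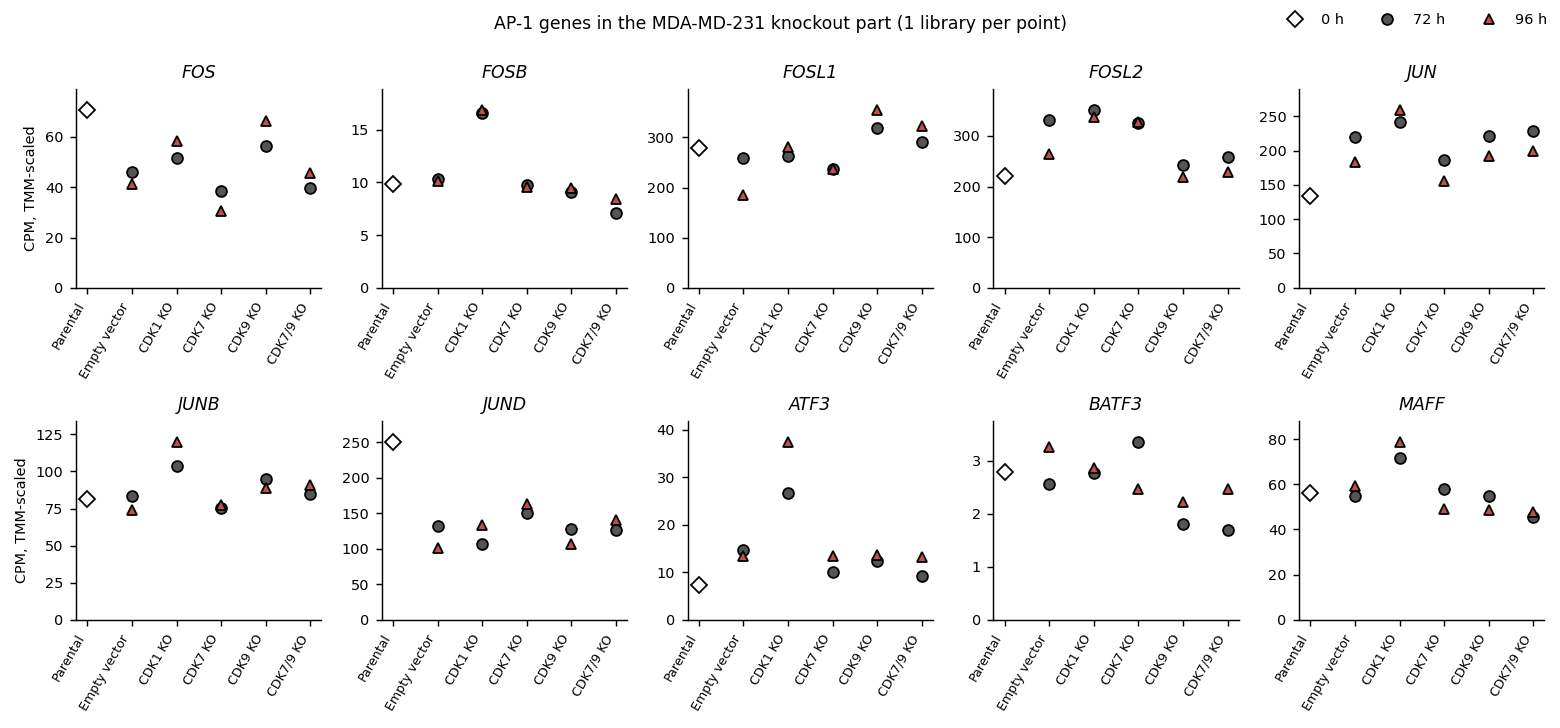
TMM-scaled CPM of the 10 AP-1 genes in the 11 libraries of the MDA-MD-231 knockout experiment by genotype, 1 library per point, with 72 h, 96 h and the 0 h Parental library as symbols. ATF3 and FOSB are highest in the 2 CDK1 KO libraries, and FOSL1 is highest in the CDK9 KO library at 96 h.

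In the knockouts the log2 changes of the members lay between -0.53 (BATF3 in CDK9 KO) and 1.17 (ATF3 in CDK1 KO), and 2 tests passed. ATF3 was higher in CDK1 KO, at 26.6 CPM (72 h) and 37.4 CPM (96 h) against 14.8 and 13.5 CPM with Empty vector and 9.13 to 13.7 CPM in the other knockouts. The log2 change was 1.17 ± 0.16 (adjusted p = 0.0176 over 16783 genes by the same edgeR test), and ATF3 was the 1 member called higher, against 0.322% of genes. FOSB (16.6 and 16.8 CPM against 10.3 and 10.1 CPM; 0.72 ± 0.13, adjusted p = 0.0509) and JUNB (104 and 119.6 CPM against 83.2 and 74.3 CPM; 0.51 ± 0.11, adjusted p = 0.0719) also lay above both Empty vector libraries, short of the threshold. FOS, FOSL1, FOSL2, JUN and MAFF lay above both in CDK1 KO too and did not pass. There 1 of the 10 members had a change below 0, beside 47.2% of all genes, and 6 had an unadjusted p under 0.05 with edgeR. With CDK9 KO, FOSL1 was higher, at 319 and 354 CPM against 258 and 185 CPM (0.60 ± 0.14, adjusted p = 0.0315), 1 member against 4.34% of genes. With CDK7 KO no member passed, against 0.0238% of genes called (3 of 10 had an unadjusted p under 0.05 with edgeR, and DESeq2 called none). With CDK7/9 KO none passed either, against 11.3% called, with 4 of 10 at an unadjusted p under 0.05, and DESeq2 called FOSL1. FOSL1 in CDK7/9 KO stood at 291 and 323 CPM (0.47 ± 0.14, adjusted p = 0.0553). FOSL2 stood at 243 and 219 CPM in CDK9 KO and at 259 and 229 CPM in CDK7/9 KO against 332 and 264 CPM with Empty vector, with log2 changes of -0.36 ± 0.10 (adjusted p = 0.0531) and -0.28 ± 0.10 (adjusted p = 0.0964). JUN and JUND, which were lower with the inhibitor combination, were at 0.09 ± 0.11 (adjusted p = 0.613) and 0.21 ± 0.15 (adjusted p = 0.389) in CDK7/9 KO. At 96 h against 72 h no member passed, against 0.0536% of genes called, 3 had an unadjusted p under 0.05 with edgeR and DESeq2 called none.

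Both knockout calls were lost without some single libraries. ATF3 in CDK1 KO kept a change of 0.89 to 1.41 but was lost without either CDK1 KO library, either CDK7 KO library or the CDK9 KO library at 72 h, and FOSL1 in CDK9 KO was lost without any of the 8 knockout libraries (0.33 without Empty vector at 96 h to 0.89 without Empty vector at 72 h). Scaled to mitochondrial mRNAs, the median of all genes was -0.82 in CDK9 KO (67 genes higher and 11344 lower, against 728 and 641) and -0.81 in CDK7/9 KO, and FOSL1 in CDK9 KO was at -0.19 (adjusted p = 0.360).

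The other genes of the pathway were taken from 6 lists. Of 12 further FOS, JUN, ATF, BATF and MAF family genes 10 were tested, and with SY200/V50 none was higher and 7 were lower, beside 24% and 24.2% of all genes, with a median log2 change of -0.82 beside 0.09 over all genes. The same shares stand beside the counts of the other lists with SY200/V50. They include the small MAF gene MAFK (-1.31 ± 0.17, adjusted p = 1.15e-05) and ATF2, a partner of c-JUN (-0.76 ± 0.14, adjusted p = 0.000314). Of 16 other immediate-early genes none was higher and 10 were lower (median -1.14), among them KLF4 (-2.31 ± 0.23), KLF2 (-3.74 ± 0.40), IER5 (-2.65 ± 0.35) and MYC (-2.25 ± 0.39). Of 13 MAP kinase phosphatases and feedback inhibitors, which switch off the kinases that induce FOS, none was higher and 12 were lower (median -2.19), with DUSP5 at -3.70 ± 0.32, DUSP10 at -2.76 ± 0.25, DUSP6 at -2.25 ± 0.25 and SPRY2 at -1.86 ± 0.20. With V50 alone 8 of these 13 were lower, against 11.9% of all genes, and 1 was higher, against 10.4%, DUSP8 (0.63 ± 0.20, adjusted p = 0.0301). With SY200 alone 1 was lower, against 1.02%, DUSP10 (-0.97 ± 0.23, adjusted p = 0.0400).

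Of 14 factors that act on the decay of AU-rich mRNAs, such as that of FOS, 3 were higher and 6 lower with SY200/V50, beside 24% and 24.2% of all genes. The decay factors ZFP36L2 (-2.91 ± 0.33), ZFP36L1 (-1.95 ± 0.25) and ZFP36 (-1.55 ± 0.30) and the deadenylase subunit CNOT6L (-2.11 ± 0.25) were lower. The 3 higher genes were ELAVL1 (0.37 ± 0.10), whose product protects AU-rich mRNAs, the decay factor KHSRP (0.37 ± 0.11) and the deadenylase gene PAN2 (0.67 ± 0.18). Of 29 MAP kinases and factors that induce FOS and JUN 5 were higher and 11 lower, with MAP3K1 at -1.96 ± 0.28, the JNK activators MAP2K4 at -1.30 ± 0.17 and MAP2K7 at -0.91 ± 0.15, and MAPK3 (ERK1) at 0.89 ± 0.15. The other higher genes were the ERK activators MAP2K1 (0.39 ± 0.10) and MAP2K2 (0.37 ± 0.13), the JNK gene MAPK9 (0.55 ± 0.14) and RPS6KA4 (0.58 ± 0.22). Of 26 genes known as AP-1 targets 23 were tested, and 4 were higher and 2 lower (median -0.31), with HMGA1 at 0.73 ± 0.11, TIMP1 at 0.72 ± 0.11, CD44 at 0.65 ± 0.19, AXL at 0.73 ± 0.26, VEGFA at -0.99 ± 0.20 and HBEGF at -1.35 ± 0.31. With V50 alone 10.4% of all genes were higher and 11.9% lower. Of the 10 further family genes 3 were lower, among them MAFK (-0.77 ± 0.17, adjusted p = 0.00455). Of the 16 other immediate-early genes 4 were lower, KLF2 (-2.06 ± 0.37), KLF4 (-1.24 ± 0.23), IER5 (-1.30 ± 0.34) and NR4A2 (-1.14 ± 0.35). None was higher in these 2 lists. Of the 23 AP-1 targets 1 was higher and 3 lower, of the 14 decay factors 1 and 3, and of the 29 MAP kinases and inducing factors 0 and 6. All of these directions are relative to TMM scaling, and the lists were chosen with results of the same data known.

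In CDK7/9 KO, where 5.72% of genes were higher and 5.62% lower, the AP-1 target list had the most calls. None of 24 tested targets was higher and 9 were lower, among them IL11 (-0.98 ± 0.11), the urokinase gene PLAU (-0.54 ± 0.09), the collagenase gene MMP1 (-1.05 ± 0.19) and CXCL8 (-1.35 ± 0.27), with adjusted p of 0.00387 to 0.0157. The median log2 change of the list was -0.17 beside -0.01 over all genes. Of the 16 other immediate-early genes 3 were lower, CCN2 (-0.64 ± 0.09), EGR1 (-0.60 ± 0.12) and CCN1 (-0.54 ± 0.12), and of the 13 phosphatases and feedback inhibitors none passed. In CDK1 KO, where ATF3 was higher and 0.322% of all genes were, 3 of the 16 were higher, EGR1 (0.97 ± 0.12, adjusted p = 0.0144), KLF10 (0.71 ± 0.09, adjusted p = 0.0161) and KLF4 (0.66 ± 0.12, adjusted p = 0.0495). The AP-1 targets IL6 (1.34 ± 0.18, adjusted p = 0.0161) and AREG (0.67 ± 0.11, adjusted p = 0.0310) were higher there too. In CDK9 KO, where FOSL1 was higher, 4.34% of all genes were higher and 3.82% lower. Of the 24 targets 4 were lower, IL11 (-1.15 ± 0.11, adjusted p = 0.00409), IL6 (-0.96 ± 0.20, adjusted p = 0.0213), AREG (-0.53 ± 0.11, adjusted p = 0.0229) and CXCL8 (-1.06 ± 0.27, adjusted p = 0.0414). Of the 16 other immediate-early genes KLF10 was higher (0.46 ± 0.09, adjusted p = 0.0196), and CCN2 (-0.46 ± 0.09, adjusted p = 0.0161), IER3 (-0.53 ± 0.11, adjusted p = 0.0202) and CCN1 (-0.55 ± 0.12, adjusted p = 0.0253) were lower. The genes of these lists named for V50, SY200, CDK1 KO and CDK9 KO, and those higher with the combination other than MAPK3, HMGA1 and TIMP1, were chosen after their values were seen.

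Across the 22 inhibitor libraries, log2 CPM centred within each line was compared between genes. Among members, FOSL2 went most closely with JUND (r = 0.80), JUN with FOSL1 (0.74) and FOSL2 (0.72), and FOSB with JUNB (0.70) and FOS (0.68), while ATF3 and BATF3 had the lowest value (-0.63), followed by FOS and JUND (-0.57). Of 9789 other genes, the most like FOSB was NR4A1 (0.91), the most like JUNB was IER2 (0.86), both immediate-early genes, and the most like FOSL1 was MYC (0.84). JUN was most like BHLHE40 (0.89), ATF3 most like RHOB (0.84), FOSL2 most like HYLS1 (0.96), JUND most like TBC1D22B (0.94), MAFF most like PCF11 (0.81), FOS most like TAF9 (0.78) and BATF3 most like DCTPP1 (0.83). These libraries share controls, scaling and treatments, so the values describe the pattern and have no test. Those of BATF3 rest on low counts, with 6 to 19 reads per library in MDA-MD-468. Its mean was 2.62 CPM, while the genes compared with the members had a mean of at least 10 CPM.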

How the data were processed

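RNA of 33 libraries was sequenced with a 3' tag kit. The submitters' processing notes name STAR 2.7.10a and GRCh38. How reads were counted, on which strand and with which annotation, is not given in the sources used here. The deposited values are raw whole-number read counts for 59428 gene symbols, and no unused sample columns were present. The 22 inhibitor and 11 knockout libraries were scaled separately (TMM). Genes were filtered with filterByExpr (minimum count 10, total 15) and tested with edgeR 4.0.16 (R 4.3.3, limma 3.58.1, quasi-likelihood F test, Benjamini-Hochberg adjusted p under 0.05) on 18911 and 16783 genes, with line, treatment and time as terms, and 11 and 4 residual degrees of freedom. The knockout Parental library entered no test. DESeq2 1.42.0, other scalings, filters, controls and left-out libraries were alternatives, and the edgeR step was tested on simulated data. The 10 genes, the 6 lists and the genes named (the 4 smallest adjusted p per list) were chosen with earlier results of these data known. Some genes of the lists are not reported here.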

Additional observations from a re-analysis of the deposited data

How the results depend on the processing

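Each combination of line, treatment and time had 1 library, and the lower FOSL1, FOSL2, JUN and JUND with SY200/V50 were called without any 1 of the 22 inhibitor libraries. The number of members called otherwise depended on the setting, and the cause was not tested. Scaled to mitochondrial mRNAs, the calls went from 0 to 3 for SY200 (375 and 5299 genes), from 5 to 8 for SY200/V50 (9114 and 15832 genes), from 17 to 28 at single times (26028 and 73079 gene tests) and from 2 to 17 for the knockouts (3335 and 22550 gene tests). Among values past the threshold with either scaling, it reversed FOS (-0.13), BATF3 (-1.17) and MAFF (-0.90) with SY200/V50, FOSL1 (-0.19), JUN (-0.78), JUNB (-0.58) and JUND (-0.77) in CDK9 KO, JUN (-0.71), JUNB (-0.64) and JUND (-0.57) in CDK7/9 KO, and MAFF with SY200/V50 against SY200 (-0.90). Values past it with neither scaling also changed sign, among them FOSB with SY200/V50 (-0.83), JUNB (-0.67), ATF3 (-0.81) and BATF3 (-0.59) with V50 and JUND with SY200 (-0.25). For V50, the 3 calls became 0 with no filter on low counts, 0 with DMSO alone as control, 1 with Parental alone, 0 without a term for the line (4225 and 103 genes) and 0 in each line alone. For SY200/V50, the 5 became 3 without a term for the line (2364 genes), 1 in MDA-MD-231 alone (154 genes) and 3 in MDA-MD-468 alone (3562 genes). Without a term for the line, 17 calls at single times became 1 (3396 gene tests), 4 against V50 became 1 (252 genes), 6 against SY200 became 2 (2062 genes) and 6 for 12 h against 3 h became 0 (33 gene tests). DESeq2 called 2 effects that differed between the lines, where edgeR called 0 (579 and 0 gene tests), and 7 in the knockouts, where no filter gave 9 (8732 gene tests). DESeq2's size factors in edgeR moved the genes called higher and lower from 355 and 1071 to 763 and 1001 at 3 h of SY200/V50, from 160 and 616 to 271 and 513 at 3 h of V50, and from 1422 and 2344 to 2214 and 2193 for SY200/V50 against V50.

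With 1 library left out at a time, the calls ranged from 0 to 0 for SY200, 0 to 3 for V50, 4 to 5 for SY200/V50, 13 to 17 at single times, 2 to 4 against V50, 3 to 6 against SY200, 0 to 1 against the sum of the single effects, 1 to 7 for 12 h against 3 h, 0 to 0 for the difference between lines in response, 3 to 6 for the lines without inhibitor and 0 to 0 for DMSO against Parental. In the knockouts they ranged from 0 to 20, with 20 without Empty vector at 72 h and 8 without Empty vector at 96 h, and from 0 to 1 for 96 h against 72 h. No count of all genes called in the same fits stands beside these ranges, so whether the calls over all genes moved with them is not shown. Leaving out either Empty vector library also left a single one as the reference of every knockout. These ranges, the knockout counts among them, are therefore not read as results about the members. Libraries were matched by line and time through the terms of the model. No paired analysis was possible because the labels give no replicate numbers that would pair libraries beyond that.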

Other observations

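The Parental library of the knockout experiment, at 0 h, entered no comparison. JUND stood there at 249.6 CPM, above the 100.7 to 163 CPM of the 10 other libraries of that experiment, and FOS at 70.6 CPM, above their 30.7 to 66.4 CPM. ATF3 (7.41 CPM) and JUN (134 CPM) were below all 10. CDK1 stood at 84.4 CPM in it, close to the 81.7 and 84.3 CPM of the CDK1 KO libraries. In the Parental library of MDA-MD-231 in the inhibitor experiment, scaled separately, FOS stood at 4.10 CPM and JUND at 116 CPM.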
